A study of Mus musculus with 4 samples.

Results

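Human T helper cells that carried mRNA of CD40LG, the ligand for CD40 on B cells and myeloid cells, were followed in the blood and injured spinal cord of humanised mice. They were chosen by a fixed reading of each barcode's unique molecular identifiers (UMIs, each standing for 1 captured mRNA molecule): over 50% of UMIs on human genes, at least 500 human genes, at least 1 UMI over CD3D, CD3E and CD3G, at least 1 of CD40LG, and 0 of CD8A, CD8B, FOXP3 and MS4A1. Barcodes with 2 or more of PDCD1, CD200, GNG4 and FZD3, or 2 or more of AK5, NOG, NRP2 and LRRN3, were left out. This gave 2178 cells of 17842 human barcodes with at least 500 human genes, out of 22830 barcodes in all. Because CD40LG and these other genes chose the cells, their values describe the choice and are not results.

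Human CD45+ cells were sorted alive from NSG-SGM3 hosts, which are of NOD.Cg background with the alleles Prkdcscid and IL2rgtm1Wjl and the transgene Tg(CMV-IL3,CSF2,KITLG)1Eav/MloySzJ, and each group was read as 1 droplet scRNAseq library. The naïve blood library came from untreated males and held 679 of the cells. The sham blood library came from males given a T9 laminectomy (7 dpi) and held 731. The SCI blood and SCI cord libraries came from pooled male and female mice with a T9 spinal cord injury (7 dpi) and held 742 and 26. The labels give an age of 15 weeks for all groups. All hosts lacked lymphocytes of their own, expressed the human cytokines IL3, CSF2 and KITLG from the CMV promoter, and had been irradiated as pups and engrafted with human cord blood CD34+ stem cells. The cord cells also went through papain digestion and magnetic selection. With 1 library a condition there was no replicate check between conditions, and the donors behind each library are not given. Host sex, donor, library and treatment cannot be told apart between SCI and the other groups. Nor can donor, library and treatment be told apart between sham and naïve blood.

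CD40LG is shown for a short time on CD4+ T cells after their T cell receptor is engaged. Its binding to CD40 licenses B cells to switch antibody class and enter germinal centres, and prompts dendritic cells and macrophages to present antigen and make cytokines. Circulating helper T cells also carry homing receptors that set where they leave the blood: CCR7 leads to lymph nodes, CCR4 and CCR10 to skin, the integrin chain ITGB7 to gut, and CXCR3 to inflamed tissue.

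The markers that the rule did not use bore on the name T helper cell only in part. CD4 was detected in 42.9%, 56.0% and 51.2% of the naïve, sham and SCI blood cells and 76.9% of the cord cells, against 0.316%, 1.03% and 0.654% of MS4A1+ CD3- B cells in the blood libraries. Whether the cells without a CD4 UMI were CD4+ was not tested. The cells' median depth in UMIs was 4042 (naïve), 5845 (sham) and 5288 (SCI) in blood and 8298 in cord. The T cell receptor β constant chain TRBC2 was detected in 78.2%, 83.9%, 84.0% and 92.3% of them, against 31.5%, 41.7% and 41.7% of B cells in blood, and TRDC, the δ constant chain, in 5 of 679, 10 of 731, 23 of 742 and 0 of 26. LTB, a TNF family cytokine of lymphocytes, was read in 96.0% or more of the cells in every library, but also in 87.5% or more of B cells. CD40 itself was seen in at most 0.736% of them and in 40.0%, 55.8% and 50.8% of B cells. Interval bounds on all shares and counts here cover counting error only.

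CD40LG sat close to the limit of detection. It was read as exactly 1 UMI in 508 of 679, 460 of 731, 542 of 742 and 11 of 26 cells, with a mean of 1.32, 1.53, 1.36 and 2.81 UMIs per chosen cell and a highest value of 5, 7, 5 and 10. In B cells, which should lack it, it was read in 2 of 1266, 0 of 581 and 2 of 917. Cells just outside the rule, which passed every gate but had 0 CD40LG UMIs, numbered 2320, 1576, 1853 and 14, and are called CD40LG- cells below. At an equal depth of 1000 UMIs per cell, IL7R (the interleukin 7 receptor α chain) was detected in 24.1% of CD40LG- cells, 32.5% of cells with 1 CD40LG UMI and 30.4% of those with 2 or more in naïve blood. The same series was 26.9%, 38.5% and 32.8% in sham blood, and 32.9%, 37.3% and 36.0% in SCI blood. CCR10 in these classes was at 2.91%, 6.31% and 10.5% in naïve blood, 1.52%, 2.17% and 2.58% in sham blood, and 1.62%, 2.58% and 2.50% in SCI blood. The class with 2 or more CD40LG UMIs held only 171, 271 and 200 cells at full depth. Whether these series differed between libraries was not tested.

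The share of CD40LG+ cells differed between libraries at full depth and came close together in blood at equal depth. Among barcodes that passed every gate but CD40LG, 22.6% of the naïve library were CD40LG+ (exact Clopper-Pearson 95% interval 21.2 to 24.2, 679 of 2999), 31.7% of the sham library (29.8 to 33.6, 731 of 2307), 28.6% of the SCI blood library (26.9 to 30.4, 742 of 2595) and 65.0% of the cord library (48.3 to 79.4, 26 of 40). After every cell was thinned to 2000 UMIs, which left out 329, 85, 115 and 5 shallower human barcodes, and all gates were read again on the thinned counts, the shares were 13.2%, 13.0%, 11.9% and 26.0%. At 1000 UMIs they were 6.14%, 6.12%, 5.87% and 9.09%. Reading the gates again changed the denominators, to 3469, 2973, 3340 and 44 at 1000 UMIs. With the full-depth gates kept and CD40LG alone read on thinned counts, a choice made after seeing the data, the shares were 13.9%, 14.6%, 13.6% and 28.9% at 2000 UMIs, and 7.08%, 7.38%, 7.06% and 10% at 1000 UMIs. The intervals of the 3 blood libraries overlapped at equal depth in each of these readings. The cord share stayed the highest value, although its interval at 1000 UMIs ran from 2.53 to 21.7 with the gates read again. Over all human barcodes with 500 genes, the full-depth shares were 10.3%, 14.9%, 11.9% and 20.5%.

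**Figure D1:**
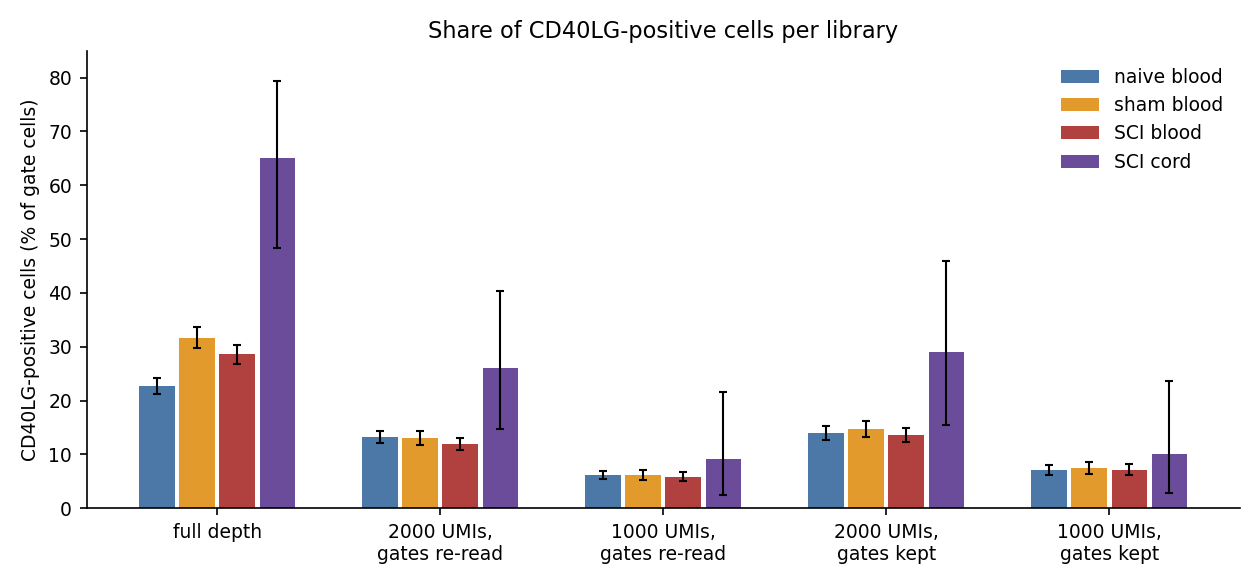
Share of CD40LG+ cells among barcodes that passed every gate but CD40LG (y axis, %), for naïve blood, sham blood, SCI blood and SCI cord, at full depth and at 2000 and 1000 UMIs per cell, with all gates read again on the thinned counts or kept from full depth; bars are shares and lines are exact 95% binomial intervals. The blood libraries run from 22.6% to 31.7% at full depth and, at 1000 UMIs, from 5.87% to 6.14% with gates read again and 7.06% to 7.38% with gates kept.

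Within each blood library, CD40LG+ cells were set against the CD40LG- cells of the same gates, which asks what else marks these helper cells apart from the gene that chose them. FKBP5, a co-chaperone of the glucocorticoid receptor, PDLIM1, a cytoskeletal adaptor, ST6GALNAC1, a sialyltransferase, and TCF7, a transcription factor of resting and memory T cells, were higher in CD40LG+ cells. TIGIT and TNFRSF18 (GITR), receptors of regulatory and activated T cells, and GBP5, an interferon-induced GTPase, were lower, and so were the cytotoxic genes CCL5, GZMK, NKG7 and GNLY. The test was edgeR's quasi-likelihood test on UMIs summed per library, with the library as a block and Benjamini-Hochberg adjustment. Its replicates are the 3 pools, which also differ in treatment. Of 11317 genes tested, 365 (3.23%) were higher and 487 (4.3%) lower at an adjusted p under 0.05. Without the sham library the counts were 156 and 261, and without the SCI library 196 and 360. They were 76 and 135 by DESeq2, 57 and 160 with a CD4 UMI required on both sides, and 24 and 72 with no library block.

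FKBP5 stood at 151, 185 and 147 CPM (UMIs of a gene relative to the summed UMIs of the cells, on the usual scale) in CD40LG+ cells of naïve, sham and SCI blood against 86.1, 103 and 94.9 CPM in CD40LG- cells. It was higher in 3 of 3 libraries, with a log2 fold change of 0.76 ± 0.06 (SE, n = 3 libraries, edgeR adjusted p = 4.44e-06). Of 14 tested glucocorticoid response genes, however, FKBP5 alone was higher and 6 were lower, TSC22D3 and DUSP1 among them (median log2 fold change -0.21). PDLIM1 stood at 304, 299 and 258 CPM against 216, 173 and 187 (log2 fold change 0.58 ± 0.06, edgeR adjusted p = 9.95e-05). Both kept their call among cells of 3000 to 6000 UMIs, where FKBP5 was at 0.59 (adjusted p = 4.57e-07, edgeR) and PDLIM1 at 0.64 (adjusted p = 1.96e-10, edgeR). TIGIT stood at 82.0, 50.8 and 44.6 CPM against 174, 177 and 99.1, a log2 fold change of -1.38 ± 0.11 (edgeR adjusted p = 4.78e-06), and TNFRSF18 had a log2 fold change of -1.28 ± 0.08 (edgeR adjusted p = 1.32e-06). For FKBP5, PDLIM1, TIGIT and TNFRSF18 every CD40LG+ value lay on the same side of the CD40LG- value of its own library.

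The cytotoxic genes and the cell cycle genes each depended on how the comparison was drawn. CCL5, a chemokine of killer cells, was at 43.3, 21.1 and 47.4 CPM in CD40LG+ cells against 344, 165 and 245 CPM (log2 fold change -2.75 ± 0.10, edgeR adjusted p = 5.01e-09). When 1 CD4 UMI was required on both sides it was at -0.61 (edgeR adjusted p = 0.066), and NKG7, a granule protein, went from -2.61 to 0.02 (adjusted p = 0.991, edgeR). GZMA, another granule protease, was the exception in its list: it was higher in CD40LG+ cells (log2 fold change 0.24 ± 0.04, edgeR adjusted p = 3.58e-03), while 8 of the 11 tested cytotoxic and NK genes were lower. All 11 of 11 cycling genes were higher, among them TYMS, the thymidylate synthase, at 74.2, 86.0 and 105 CPM against 50.9, 38.5 and 52.5. Among cells of 3000 to 6000 UMIs, however, TOP2A, a topoisomerase of dividing cells, went from a log2 fold change of 0.71 ± 0.14 to -0.10 (edgeR adjusted p = 7.89e-03 and 0.934) and STMN1 from 0.53 ± 0.07 to 0.04 (edgeR adjusted p = 4.88e-04 and 0.899). MKI67 kept most of its size there, 0.54 ± 0.11 and 0.49, but not its call (edgeR adjusted p = 8.78e-03 and 0.174). CD40LG+ cells were deeper than CD40LG- cells in every library (medians 4042, 5845 and 5288 against 3348, 4648.5 and 4361 UMIs).

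By list, the MHC class II presentation genes were lower in 10 of 11 tested in CD40LG+ cells, for example HLA-DRA (log2 fold change -0.45 ± 0.05, edgeR adjusted p = 2.60e-04) and the invariant chain CD74 (-0.30 ± 0.06, edgeR adjusted p = 0.0117). Monocyte marker genes moved with them in sham blood, where their summed level was 365 CPM in CD40LG+ and 1758 CPM in CD40LG- cells, but not in naïve blood (1414 and 1372) or SCI blood (561 and 163), with S100A9 or LYZ the most abundant. Basophil and mast cell markers were at 27.5, 4.44 and 44.6 CPM against 96.7, 324 and 167, and 7 of 7 tested were lower. Plasma cell markers were lower in 6 of 6 tested (median log2 fold change -1.95), at 6600, 35.2 and 42.6 CPM against 27561, 43.8 and 49.5, with IGHM the most abundant, and of 3 tested B cell markers CD79A was lower. The part of such cells in the MHC class II values was not tested. All 6 tested regulatory T cell markers were lower, with FOXP3 at 0 on both sides by the rule. Of 17 tested glycolysis genes 8 were higher and 2 lower, and of 26 T helper transcription factors 2 (ID2 and TCF7) were higher and 10 lower, including IKZF2, MAF and PRDM1. Of the T cell help genes, TNFSF8 (CD30 ligand) was higher (log2 fold change 0.50 ± 0.10, edgeR adjusted p = 8.83e-03), while LTB and MAF were lower and 11 of 14 did not pass. Helper T identity genes went both ways: of 12 tested, 3 were higher (TRAT1, CD6 and CD4) and 3 lower (MAL, LTB and CD27), with a median of 0.08. CD4 was higher (0.30 ± 0.05, edgeR adjusted p = 1.95e-03), and IL7R (0.14 ± 0.05, 0.118) and KLRB1 (0.04 ± 0.05, 0.708) did not pass. No chemokine receptor of 15 tested was higher and 5 were lower, CXCR3 (-0.65 ± 0.10, edgeR adjusted p = 1.44e-03) and CXCR4 among them.

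FOXP3+ T cells numbered 376, 439 and 232 in the blood libraries, and all of those compared had 0 CD40LG UMIs. Against them the separation was wider. FOXP3 itself divided the sides, so lower regulatory T cell markers, CTLA4 and IL2RA among them, follow in part from that choice. By the same edgeR test, 1060 of 9977 genes (10.6%) were higher and 1280 (12.8%) lower in CD40LG+ cells, against 370 and 538 by DESeq2. GZMA was at 627, 525 and 719 CPM in CD40LG+ cells and 91.3, 43.8 and 86.9 CPM in FOXP3+ cells, a log2 fold change of 3.11 ± 0.10 (edgeR adjusted p = 2.50e-15). IL7R was at 524, 686 and 749 CPM against 89.7, 115 and 99.5 (2.64 ± 0.08, edgeR adjusted p = 3.74e-16), and TCF7 at 609, 655 and 638 CPM against 114, 105 and 114. FKBP5, CYSLTR1 (a cysteinyl leukotriene receptor), PDLIM1, ID2, TSPAN2, PLAC8 and MARCKSL1 completed the highest genes. On the other side stood CTLA4, an inhibitory receptor, at 7.72, 9.71 and 9.55 CPM against 176, 152 and 111 (-4.00 ± 0.15, edgeR adjusted p = 1.45e-14), and IL2RA, the high-affinity IL-2 receptor chain, at 29.2, 13.6 and 14.0 CPM against 220, 229 and 195. GBP5, PTGIR, TNFRSF18, PMAIP1, NCF4, TNFRSF1B, TIGIT and PRDM1 were also among the lowest. These 20 genes kept direction and call under every alternative tried.

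The FOXP3+ cells carried more of several groups at once. Lower in CD40LG+ cells were 10 of 11 cycling genes, 10 of 11 MHC class II genes, 15 of 22 interferon gamma response genes and 6 of 6 regulatory T cell markers, with no gene of these 4 lists higher. The regulatory T cell markers describe in part the choice of cells by FOXP3. Of 2 tested B cell markers 2 were lower, and the list summed to 118, 84.6 and 93.6 CPM against 177, 159 and 151. Monocyte markers summed to 1414, 365 and 561 CPM against 1971, 831 and 19.9, and 0 of 8 tested passed. Of 4 tested plasma cell markers 2 were higher and 0 lower. The part of such cells in these MHC class II values was not tested. T cell receptor signalling genes went both ways (13 higher, 8 lower of 38). CCR7 was higher in CD40LG+ cells (0.83 ± 0.09, edgeR adjusted p = 1.61e-07), and CCR4 (-0.68 ± 0.10, 1.29e-05), CXCR3 (-1.51 ± 0.12, 2.86e-09), ICOS (-1.10 ± 0.11, 8.21e-08) and GATA3 (-0.42 ± 0.08, 3.95e-04) were lower. CD4 did not pass (0.03 ± 0.07, edgeR adjusted p = 0.850).

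**Figure D2:**
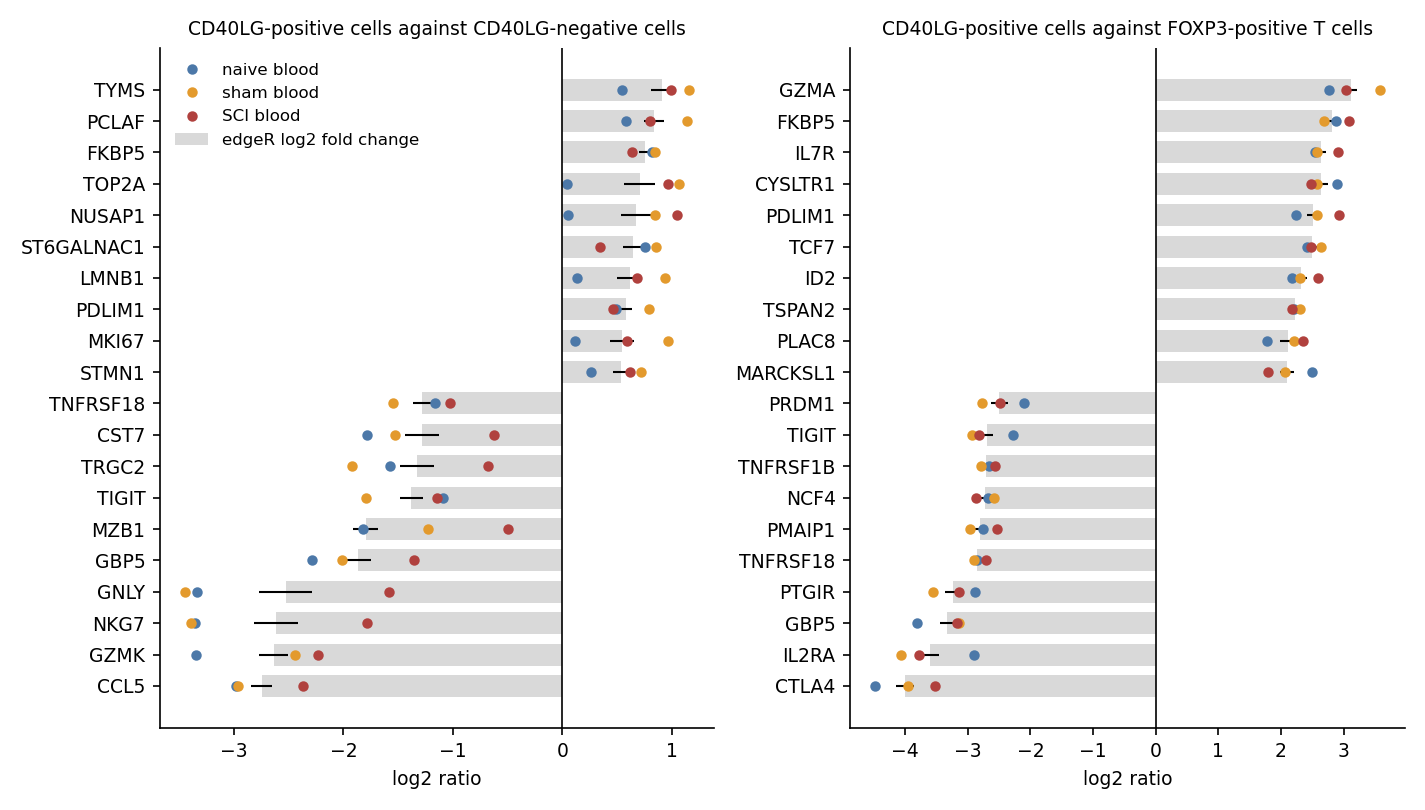
log2 ratio (x axis) of CD40LG+ cells over CD40LG- cells of the same gates (left) and over FOXP3+ T cells (right) for the 10 highest and 10 lowest genes of each edgeR comparison; points are the 3 blood libraries, grey bars the fitted log2 fold change and black lines its SE. TOP2A lies near 0 in naïve blood and near 1 in the others, while FKBP5 and TIGIT lie on one side in all 3 libraries.

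Among themselves, CD40LG+ cells of blood varied in the homing receptors, helper factors and cytokines detected. CCR7 was detected in 52.7%, 65.9% and 48.4% of them in naïve, sham and SCI blood. KLRB1 (CD161), a C-type lectin of memory T cells, was detected in 60.5%, 65.1% and 53.0%, and GZMA in 51.8%, 50.6% and 56.6%, against at most 1.11% of B cells for GZMA. GATA3, the TH2 factor that all T cells express at some level, was read in 45.2%, 57.3% and 42.0%, whereas TBX21 (TH1) was read in at most 1.33%. CCR4 was read in 27.7%, 31.5% and 20.5%, against at most 0.218% of B cells, and CXCR3 in 8.98%, 10.8% and 15.2%, against 7.11% or less of B cells. CCR6 was read in at most 12.6%, below its shares in B cells, which express it. CXCR5, BCL6 and IL21, genes of follicular helper cells, were read in at most 1.89%, 1.23% and 0.137%. Cytokine mRNA was scarce: IFNG was read in at most 1.89% of blood cells, IL2 in at most 0.684% and IL4 in at most 0.147%, while TNF was read in 11.5%, 11.9% and 11.1%, against 7.74%, 6.88% and 6.76% of B cells. These low shares lie near the level of 1 UMI in single cells and are given as detection, not as absence.

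CCR10 and TSHZ2, a zinc finger transcription factor, had been put forward as markers of the cells and are given as description. CCR10 was detected in 15.3% (12.7 to 18.2) of the naïve CD40LG+ cells, 8.76% of the sham ones, 7.68% of those from SCI blood and 11.5% of those from cord, against 8.10%, 4.25% and 4.70% of CD40LG- cells in blood, 1.86%, 2.28% and 3.02% of FOXP3+ T cells and at most 0.688% of B cells in blood. It therefore marked a minority. TSHZ2 was detected in 14.0%, 18.7%, 8.36% and 3.85% of CD40LG+ cells and in 9.09%, 14.8% and 5.56% of CD40LG- cells of blood. At 1000 UMIs per cell its shares were 3.98%, 2.33% and 1.75% against 2.87%, 3.56% and 1.35%, so that in sham blood it was no higher in CD40LG+ cells.

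The CCR10+ fraction of the CD40LG+ cells carried a set of other genes at different rates from the CCR10- fraction at an equal depth of 1000 UMIs. GZMA was detected in 52.9% of CCR10+ and 23.9% of CCR10- cells in naïve blood (104 and 574 cells), 39.1% and 21.7% in sham blood (64 and 667), and 40.4% and 29.2% in SCI blood (57 and 685). The gut homing integrin ITGB7 was detected in 23.1% and 12.5%, 15.6% and 11.4%, and 19.3% and 10.9%. KLRB1 went the other way, at 18.3% and 37.8%, 17.2% and 31.2%, and 19.3% and 27.3%. TSHZ2 was at 9.62% and 2.96%, 6.25% and 1.95%, and 5.26% and 1.46%. The direction of all 4 genes was the same in the 3 blood libraries, while in sham and SCI blood the intervals of the fractions overlapped for all but GZMA in sham blood. Cells of 1 library are not replicates, so no test was made.

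**Figure D3:**
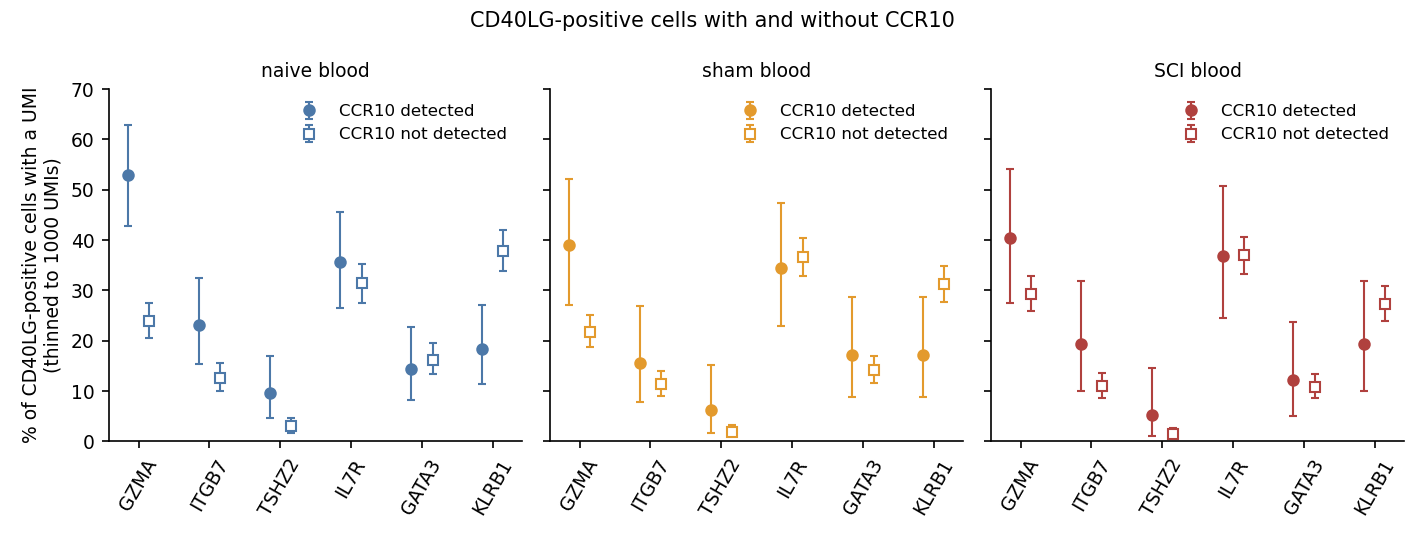
Share of CD40LG+ cells with at least 1 UMI of each gene after thinning to 1000 UMIs per cell (y axis, %), for cells with CCR10 detected (filled circles) and not detected (open squares) in naïve, sham and SCI blood; lines are exact 95% binomial intervals. GZMA is 52.9% against 23.9% and KLRB1 18.3% against 37.8% in naïve blood.

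Between conditions, the UMIs of all CD40LG+ cells were summed per library, scaled to CPM without ribosomal and mitochondrial genes, and compared as log2 ratios with 0.5 counts added. A gene with at least 50 counts over both libraries was called past the fold at a log2 ratio of 0.5 or more, or -0.5 or less, which is a rule of size and not a test. The sums rested on 2330481, 3604076 and 3142104 UMIs in naïve, sham and SCI blood. In SCI against sham blood, 400 of 8901 genes (4.49%) were higher and 355 (3.99%) lower past the fold. In SCI against naïve blood 395 of 8511 (4.64%) were higher and 500 (5.87%) lower, and in sham against naïve blood 277 of 8653 (3.2%) were higher and 378 (4.37%) lower. The counting interval excluded 0 for 264 of the 400 and 246 of the 355 in SCI against sham blood, 249 of the 395 and 348 of the 500 in SCI against naïve blood, and 154 of the 277 and 227 of the 378 in sham against naïve blood. The 3 contrasts share their libraries, so their values are given side by side. Of the 755 genes past the fold in SCI against sham blood, 575 had the same sign in CD40LG- cells and 223 were past the fold there too. These counts were 677 and 241 of 895 in SCI against naïve blood, and 469 and 110 of 655 in sham against naïve blood.

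Of 39 measured genes induced by type I interferon, the antiviral cytokine family, 18 were lower past the fold in CD40LG+ cells of SCI blood than of sham blood and 12 lower than in naïve blood, so most did not pass in either contrast. IFI44L was at 243 (naïve), 359 (sham) and 116 (SCI) CPM, and was detected in 46.8%, 68.1% and 29.0% of the cells. MX1, a GTPase that blocks viral replication, was at 575, 662 and 322 CPM, and ISG15, a ubiquitin-like protein, at 1567, 1581 and 833. SCI blood was thus the lowest library for each of the 3 genes. IFIT1 was at 121, 145 and 65.9 CPM, IFIT3 at 56.6, 82.7 and 27.1, and RSAD2 (viperin) at 106, 127 and 54.7. In SCI against sham blood the log2 ratio was -1.63 for IFI44L (95% counting interval -1.80 to -1.46), -1.61 for IFIT3 and -1.04 for MX1, and the CD40LG- cells had -1.54, -1.50 and -1.19. Of the list, 0 were higher and 18 lower past the fold in SCI against sham blood (median -0.45, with a median of -0.01 over all genes), 1 higher (IFI27) and 12 lower in SCI against naïve blood (median -0.36, or -0.12 when 2 CD40LG UMIs were required), and 3 higher and 0 lower in sham against naïve blood (median 0.18, 33 of 39 above 0). The medians in CD40LG- cells were -0.58, -0.36 and 0.25. Of all genes, 4.49%, 4.64% and 3.2% were higher and 3.99%, 5.87% and 4.37% lower past the fold in these contrasts. IFI27 rested on few cells, with 49.5% of its SCI counts in 5 cells, and the receptor chains IFNAR1 and IFNAR2 were at 0.12 and 0.22 in SCI against sham blood, inside the fold.

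MHC class II genes, which human T cells express upon activation, had a like profile. HLA-DRB1 was at 166, 180 and 69.7 CPM in naïve, sham and SCI blood and detected in 30.3%, 38.0% and 16.2% of the cells, and HLA-DRB5 was at 113, 113 and 37.6 CPM. Naïve and sham blood lay close together, and SCI blood lay well below them. The log2 ratio in SCI against sham blood was -1.36 (-1.59 to -1.14) for HLA-DRB1 and -1.58 (-1.90 to -1.29) for HLA-DRB5, with -1.39 and -1.41 in CD40LG- cells. Of 11 genes 6 were lower and 0 higher past the fold in SCI against sham blood (median -0.58), 5 of 10 lower in SCI against naïve blood (median -0.47) and 0 of 11 in sham against naïve blood (median 0.08). Of all genes, 3.99%, 5.87% and 4.37% were lower in these contrasts. CD74 was at 268, 249 and 270 CPM and HLA-DPA1 at 162, 172 and 144, inside the fold in every blood contrast. Among B cells HLA-DRB1 was detected in 94.2%, 99.3% and 94.5%. HLA-DRB1 and HLA-DRB5 are near-identical and highly variable between people, so how reads were split between them is uncertain, and a difference of donor and of treatment cannot be told apart. In sham blood 50.6% of the HLA-DRA counts lay in 5 cells, against 14.4% in SCI blood. The summed monocyte marker level was 365 CPM in sham and 561 CPM in SCI blood, and its part in these values was not tested.

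**Figure D4:**
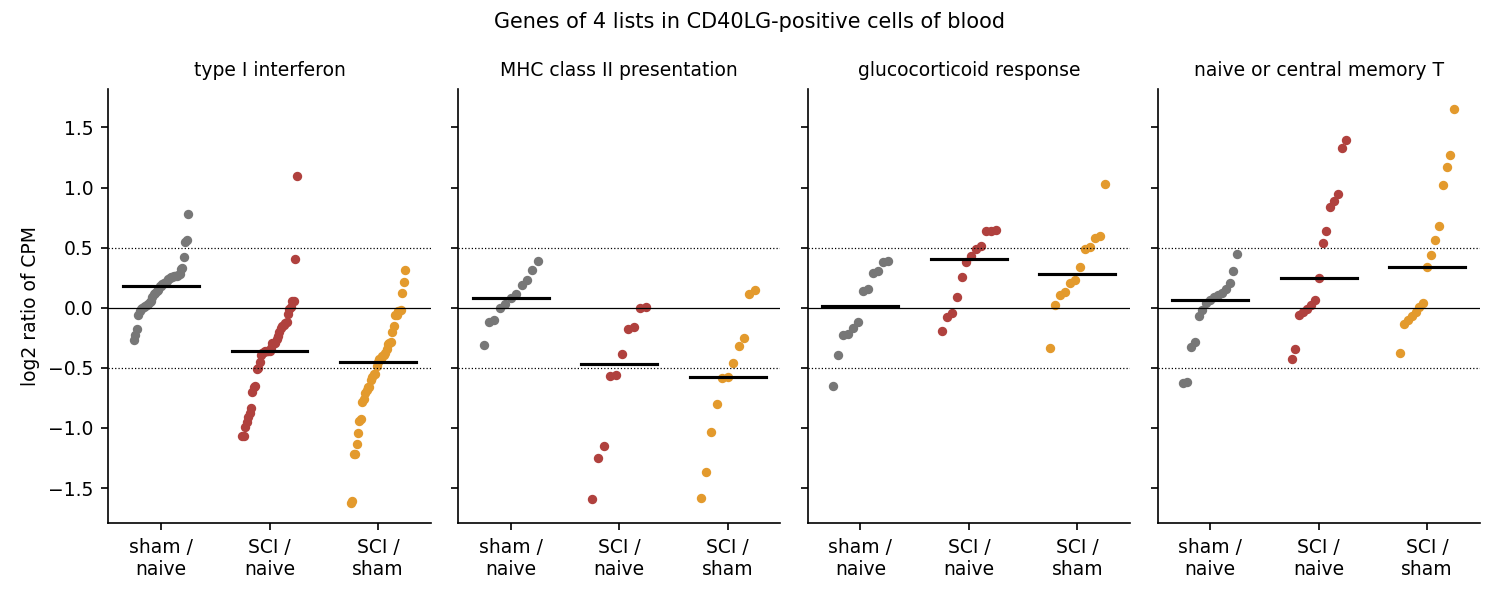
log2 ratio of CPM (y axis) of each measured gene of 4 lists in CD40LG+ cells, for sham over naïve, SCI over naïve and SCI over sham blood (x axis); points are genes, black bars the list median and dotted lines the fold of 0.5. The type I interferon median is 0.18, -0.36 and -0.45, and the MHC class II median 0.08, -0.47 and -0.58.

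By log2 ratio of SCI over sham blood, in genes whose counts summed to 100 or more over the pair and that reached 50 CPM in either library, MYOM2, GNLY, FAM118A and PTGER2 came first. MYOM2 encodes a sarcomere protein that some lymphocytes also transcribe. Its level was 24.5 (naïve), 20.5 (sham) and 181 (SCI) CPM, and it was detected in 6.48%, 7.52% and 26.3% of CD40LG+ cells, with a log2 ratio of 3.13 (2.79 to 3.51) in SCI against sham blood and 2.87 in CD40LG- cells. In SCI cord it was read in 0 of the 26 cells, a count too small to say whether they express it. FAM118A was at 24.5, 25.8 and 136 CPM in blood and 162 in cord, with 2.39 (2.07 to 2.73) in SCI against sham blood and 2.38 in CD40LG- cells. It was also detected in 4.58%, 8.78% and 29.7% of B cells, so that its difference between libraries was not particular to T cells. For both genes a difference of donor and of treatment cannot be told apart.

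PTGER2, a receptor for prostaglandin E2 that raises cyclic AMP, was at 15.4, 13.0 and 56.3 CPM and was detected in 3.53%, 4.51% and 13.7% of the cells. Its log2 ratio in SCI against sham blood was 2.10 (1.64 to 2.61) in CD40LG+ and 0.81 in CD40LG- cells, where it was detected in 7.41%, 11.9% and 17.6%. Its partner PTGER4 differed little (63.1, 53.8 and 65.6 CPM). GNLY (granulysin) was at 38.6, 23.9 and 132 CPM but was read in 1.77%, 1.92% and 3.77% of the cells, and 5 cells held 85.6%, 84.9% and 64.1% of its counts. Other genes higher in SCI than in sham blood were HOPX, a regulator of memory T cells, KLRG1, an inhibitory lectin receptor, and TRGC2, a γ constant chain. HOPX was detected in 10.0%, 8.07% and 18.6% and KLRG1 in 18.6%, 15.9% and 31.7% of the cells, against at most 2.94% and 3.44% of B cells.

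Marker lists of other T cell types are given beside these genes. The summed cytotoxic and NK list was at 796, 648 and 1038 CPM in naïve, sham and SCI blood, with GZMA its most abundant gene and NCAM1 at 0 in all 3 libraries. Of its 7 measured genes 3 were higher and 0 lower past the fold in SCI against sham blood, 3 higher and 1 lower in SCI against naïve blood, and 1 higher and 4 lower in sham against naïve blood. Of all genes, 4.49%, 4.64% and 3.2% were higher and 3.99%, 5.87% and 4.37% lower in these contrasts. The summed gamma delta and innate-like list was at 769, 642 and 647 CPM, so SCI blood lay close to sham blood and below naïve blood. KLRB1 was the list's most abundant gene (664, 585 and 509 CPM), and TRDV2 was at 0 in all 3 libraries. Of the list's 4 measured genes TRDC, TRGC1 and TRGC2 were higher past the fold in SCI against sham blood (median log2 ratio 1.00). TRDC alone was higher in SCI against naïve blood (median 0.31), and TRGC1 and TRGC2 were lower in sham against naïve blood (median -0.45). TRGC2 was at 61.8, 26.4 and 71.6 CPM, with sham blood the lowest library. The CD8 T cell list, with CD8A and CD8B at 0 by the rule, summed to 88.8, 64.4 and 118 CPM, and both of its measured genes, GZMK and CCL5, were higher past the fold in SCI against sham blood (median log2 ratio 0.93). GZMK, its most abundant gene, was also higher in SCI against naïve blood, and CCL5 was lower in sham against naïve blood. TRDC was read in 5, 10 and 23 cells. The part of such cells in the values of GNLY, KLRG1 and TRGC2 was not tested.

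**Figure D5:**
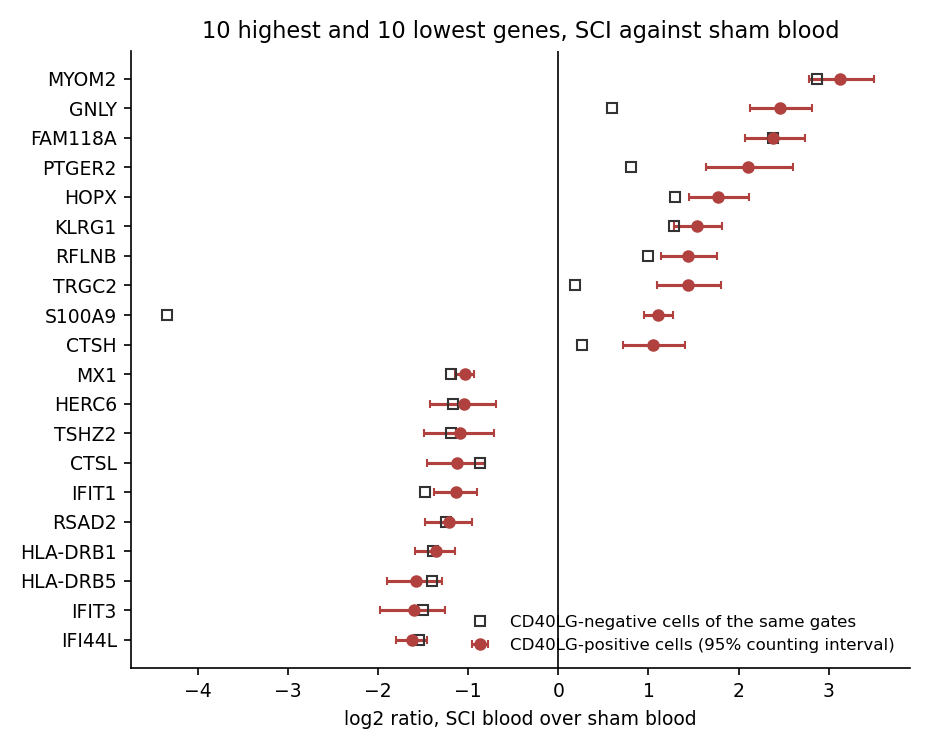
log2 ratio of SCI over sham blood (x axis) for the 10 highest and 10 lowest genes in CD40LG+ cells; red circles are CD40LG+ cells with their 95% counting interval and open squares CD40LG- cells of the same gates. MYOM2 is at 3.13 and 2.87 in the respective cells and IFI44L at -1.63 and -1.54, while S100A9 is at 1.11 and -4.35.

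Resting T cell genes and genes that respond to glucocorticoids had more members above than below 0 in SCI blood. BACH2, a repressor that keeps T cells quiescent, was at 10.7, 8.60 and 27.4 CPM in naïve, sham and SCI blood, NELL2 at 8.58, 9.43 and 22.9, TXK (a T cell kinase) at 21.5, 20.5 and 41.7, and SATB1 at 49.3, 55.2 and 88.5. In each of the 4, SCI blood held the highest value and the other 2 libraries lay close together. CCR7 (305, 313 and 240 CPM) and TCF7 (609, 655 and 638) did not share this order. Of 15 naive or central memory genes 6 were higher and 0 lower past the fold in SCI against sham blood (median 0.34), and 7 higher and 0 lower in SCI against naïve blood (median 0.25). The medians in CD40LG- cells were 0.23 and 0.44. Of all genes, 4.49% and 4.64% were higher past the fold in these contrasts, and 3.99% and 5.87% lower. T cells with 2 or more of AK5, NOG, NRP2 and LRRN3, which the rule left out, numbered 45, 40 and 167, and that step removed 15, 15 and 62 CD40LG+ cells. The part of such cells in these values was not tested. Of 12 measured glucocorticoid response genes, DUSP1, CXCR4, IL7R and PIK3IP1 were higher past the fold in SCI against naïve blood (median 0.40) and DUSP1, SGK1, CXCR4 and DDIT4 in SCI against sham blood (median 0.28), with none lower in either. IL7R was at 524, 686 and 749 CPM. FKBP5 (151, 185 and 147 CPM) and TSC22D3, which encodes the protein GILZ (log2 ratios of 0.09 and 0.20 in SCI against naïve and sham blood), stayed inside the fold.

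Homing receptors differed between libraries in both directions. CCR10 was at 115 (naïve), 43.8 (sham) and 50.6 (SCI) CPM, a log2 ratio of -1.38 (-1.68 to -1.10) in sham and -1.18 (-1.47 to -0.89) in SCI against naïve blood, with -1.04 and -0.73 in CD40LG- cells. CCR4 was at 104, 84.1 and 64.6 CPM. CXCR3 was at 31.8, 33.3 and 53.8 CPM, and CXCR4 at 39.1, 29.7 and 60.8. TSHZ2 was lower in SCI than in sham blood, with a log2 ratio of -1.09 (-1.49 to -0.72) and -1.19 in CD40LG- cells. Of 9 measured chemokine receptors 4 were higher and 0 lower past the fold in SCI against sham blood, while 0 were higher and 2 lower (CCR8 and CCR10) in sham against naïve blood. In SCI against naïve blood 2 were higher and 2 lower (median -0.30), and the median was 0.14 when 2 CD40LG UMIs were required. Of all genes, 4.49% were higher and 3.99% lower in SCI against sham blood. The shares were 3.2% and 4.37% in sham, and 4.64% and 5.87% in SCI, against naïve blood.

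Sham against naïve blood compared laminectomy with no surgery, in 1 library each, so donor, library and laminectomy cannot be told apart. The highest genes were VAMP5 (1.08, 0.75 to 1.43), a vesicle fusion protein, MAN1C1 (0.88) and the immediate early factor JUN, at 76.4 (naïve), 138 (sham) and 150 (SCI) CPM. VAMP5 was detected in 10.2%, 29.8% and 34.9% of CD40LG+ cells of naïve, sham and SCI blood. These shares are at full depth, naïve blood was the shallowest blood library, and VAMP5 was not read at equal depth. The receptor kinase gene EPHB6 (-1.87 in sham and -1.83 in SCI against naïve blood), CCR10 and TNFSF14 (LIGHT; -0.91 in sham against naïve blood) were among the lowest. Over all genes, 3.2% were higher and 4.37% lower past the fold here, so few would be counted in lists of this length. None passed in either direction of 34 oxidative phosphorylation, 17 glycolysis, 18 MHC class I, 19 adhesion and homing and 11 cycling genes. Some short lists had medians below 0, with -0.40 for 9 chemokine receptors and a median of -0.55 for 7 cytotoxic and NK markers. It was -0.45 for 4 gamma delta and innate-like, -0.56 for 2 CD8 T cell and -0.62 for 2 B cell markers. In the SCI contrasts the MHC class I list had 2 and 3 of 18 genes lower against naïve and sham blood. Of all genes, 5.87% and 3.99% were lower there.

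The lowest and highest genes of these contrasts included some that came from very few cells. The plasma cell list summed to 6600 CPM in CD40LG+ cells of naïve blood and to 35.2 and 42.6 CPM in sham and SCI blood; IGHM, its most abundant gene, was detected in 53.2%, 8.07% and 7.01% of them, 5 cells held 92.4% of the naïve counts, and SDC1 was at 0 in all 3 libraries. In naïve blood IGHM was also detected in 53.3% of CD40LG- and 53.7% of FOXP3+ cells. The monocyte gene S100A9 was at 718, 137 and 296 CPM, but 1664 of 1674, 475 of 494 and 918 of 929 of its UMIs lay in 7, 3 and 4 cells with at least 10 monocyte or basophil marker UMIs. Without those cells, a choice made after seeing the data, its log2 ratio went from -2.39 to 0.24 in sham against naïve blood and from 1.11 to -0.56 in SCI against sham blood. The values of S100A8, S100A9, S100A12, LYZ and MZB1 in these contrasts thus rest on a handful of barcodes.

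Genes for help to B cells, the function by which CD40LG is known, passed the fold in few cases between conditions. Of 11 measured beside CD40LG, 1 was higher and 0 lower past the fold in SCI against sham blood (median 0.11). The counts were 0 and 1 in SCI against naïve blood (median -0.05), and 1 and 2 in sham against naïve blood (median -0.07). Of all genes, 4.49% were higher and 3.99% lower in the first contrast, 4.64% and 5.87% in the second, and 3.2% and 4.37% in the third. Counts this small do not set the list apart from those shares. ICOS, a costimulator for follicular help, was at 52.8, 77.7 and 67.2 CPM, and TNFSF8 at 39.5, 34.4 and 39.5. LTB was at 2092, 2037 and 2196 CPM, SLAMF6 at 67.4, 85.5 and 64.9, and CD84, another SLAM family receptor, at 296, 281 and 209. The gene higher past the fold in SCI against sham blood was LTA, and the one lower in SCI against naïve blood was TNFSF14. None of ICOS, TNFSF8, LTB, SLAMF6 and CD84 passed the fold in the SCI contrasts, though CD84 lay close to it in SCI against naïve blood. Downstream CD40 signalling genes had 2 of 15 higher and 0 lower in SCI against sham blood, and T cell receptor signalling genes 1 of 38 higher and 0 lower. Cycling genes had 3 of 11 higher in SCI against sham (median 0.40) and 5 of 11 in SCI against naïve blood (median 0.49). Those medians were -0.07 and -0.42 when 2 CD40LG UMIs were required.

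The 26 CD40LG+ cells of the injured cord were set against SCI blood, with no replicate and on few cells. Of 7318 genes 1449 (19.8%) were higher and 1334 (18.2%) lower past the fold, with 435 and 359 whose counting interval excluded 0. CD69, an early activation and tissue retention marker, was detected in 80.8% of cord and 17.9% of SCI blood cells, FOS in 76.9% and 19.3%, JUN in 84.6% and 36.7%, and DUSP2, a phosphatase that limits MAP kinase signals, in 13 of 26 and 36 of 742 cells. CXCR3 was detected in 46.2% and 15.2%, CXCR6, a receptor of tissue-resident T cells, in 19.2% and 1.35%, and CXCR4 in 53.8% and 19.3%. ICOS was detected in 53.8% and 19.5% and TNF in 30.8% and 11.1%. The cord cells were also deeper (median 8298 against 5288 UMIs). In CPM, the naive or central memory list was lower past the fold in 8 of 15 genes and higher in 0 (median -0.66), including KLF2 (912 against 2074 CPM) and LEF1 (151 against 297). Cord tissue alone was digested and magnetically selected, and 1 cell held all 281 CLC (galectin-10, a basophil and eosinophil protein) UMIs. Tissue, handling and these other cells cannot be told apart in 1 library.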

How the data were processed

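Human CD45+ cells of 4 libraries (10x 3′ v3 kit) were read as deposited count matrices: UMI counts per gene and barcode that the authors made with Cell Ranger 3.1.0 (per the file headers) on hg38 and mm10 (per the labels). Members and gene lists were chosen with earlier results of these data known. Counts were summed per library and cell class. Within-library comparisons used edgeR 4.0.16 (R 4.3.3; filterByExpr, TMM, library as block because both sums come from the same library), adjusted over all genes tested; conditions (1 library each) had no test. Named genes were the 10 highest and 10 lowest of each comparison: for edgeR, called, at an average of at least 50 CPM and the same direction in all 3 libraries; for contrasts, a minimum of 100 counts summed over the pair, with 50 CPM in either. Ribosomal, mitochondrial, immunoglobulin, T cell receptor variable and sex-linked genes were not named; other genes named come from the lists. Doublets were not removed beyond the gates; Scrublet marked 27, 16, 23 and 0 members. No member barcode occurred in 2 libraries. The test was checked on simulated data. Some withheld items are not reported here.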

Additional observations from a re-analysis of the deposited data

Results flagged for a closer look

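A pair of values stood out in the cord library, which is outside the blood comparisons. In CD40LG+ cells of SCI cord against SCI blood, where 19.8% of all genes were higher past the fold, 14 of 16 measured immediate early genes were higher and 0 lower, with a median log2 ratio of 1.25, and 4 of 5 measured adrenergic and prostaglandin receptor genes were higher, with a median of 1.65. FOS, JUN, DUSP2 and CD69 were among the former, and PTGER4, PDE4B, PDE4D and CREM were the latter. PTGER4 was detected in 76.9% of cord and 22.0% of SCI blood cells. CD40LG- cells had medians of 1.78 and 1.17 for the same lists, from 14 cord cells in which monocyte markers summed to 13840 CPM (163 in SCI blood) and basophil and mast cell markers to 11162 CPM (167 in SCI blood). The part of tissue digestion was not tested.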

How the results depend on the processing

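With 1 library a condition, all condition contrasts rest on counting error alone, and depth limits the share of CD40LG+ cells. That share of gate cells (naïve, sham, SCI blood, then cord) was 13.2%, 13.0%, 11.9% and 26.0% at 2000 UMIs per cell, 6.14%, 6.12%, 5.87% and 9.09% at 1000 UMIs (all gates read again on thinned counts), 13.9%, 14.6%, 13.6% and 28.9%, and 7.08%, 7.38%, 7.06% and 10%, at those depths with full-depth gates kept (chosen after seeing the data), and 5.70%, 11.7%, 7.71% and 37.5% with 2 CD40LG UMIs required. CD40LG+ cells that also had a CD4 UMI were 9.70%, 17.7% and 14.6% of all gate cells in blood, with or without CD4. Among gate cells with a CD4 UMI, 291 (naïve), 409 (sham) and 380 (SCI) were CD40LG+ and 674, 617 and 683 CD40LG-. Genes higher and lower past the fold numbered, for sham over naïve, SCI over naïve and SCI over sham, 3057 and 3491, 3199 and 3024, and 3256 and 3139 with no filter on low counts. They numbered 42 and 50, 90 and 106, and 78 and 79 at 200 counts or more, and 16 and 42, 59 and 71, and 65 and 42 past a log2 ratio of 1. Of the 840 list medians recomputed under alternatives, 818 stayed near their value.

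In SCI against naïve blood, the cycling median was 0.66 as a mean of per-cell CPM, 0.73 after thinning and -0.42 with 2 CD40LG UMIs required, where the chemokine receptor median was 0.14, the type I interferon median -0.12 and the ER stress median -0.43 (it was -0.27 as first computed, with 0 of 20 genes higher past the fold and HSPA5, HSP90B1 and SDF2L1 lower). The ER stress median was -0.025 with CD4 required, and in SCI against sham blood the cycling median was -0.069 with 2 CD40LG UMIs. LYZ in SCI against naïve blood was at 0.29 without Scrublet-marked barcodes and 0.36 with 2 CD40LG UMIs, S100A8 at 0.52 and S100A9 at 0.50 with 2 CD40LG UMIs, and IFI27 at -0.042 with CD4 required. S100A9 in SCI against sham blood was at -5.51 with CD4 required. Without the cells of 10 or more monocyte or basophil UMIs, an alternative chosen after seeing the data, it was at -0.56, and at 0.24 in sham against naïve blood. The cause of these changes was not tested.

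Against CD40LG- cells, the edgeR counts higher and lower were 24 and 72 with no replicate block (the pairing by library left out), 76 and 135 by DESeq2, 455 and 741 with no filter, 157 and 306 with SCI cord added, 200 and 300 at 3000 to 6000 UMIs, and 57 and 160 with CD4 required. Leaving out 1 library gave 156 to 440 higher and 261 to 546 lower, the lowest without sham and the highest without naïve blood. TOP2A was at -0.10 (edgeR adjusted p = 0.934) at 3000 to 6000 UMIs, and with CD4 required NKG7 was at 0.017 (0.991) and TRGC2 at 0.20 (0.757). Against FOXP3+ cells DESeq2 gave 370 higher and 538 lower, and no replicate block 742 and 942, and leaving out 1 library gave 760 to 975 higher and 936 to 1248 lower.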
